A study of Homo sapiens with 12 samples.

Results

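Ribosomal proteins of the cytosol and of mitochondria were measured in 2 lung adenocarcinoma cell lines that had survived osimertinib, without and with later exposure to SK-216. The members were chosen by gene symbol alone, as the platform annotation gives it. Symbols of the RPL and RPS series, with RPLP0 to RPLP2 and RPSA, formed the cytosolic class, and MRPL or MRPS followed by a number formed the mitochondrial class. The rule matched 129 of 21448 probe sets, 55 cytosolic and 74 mitochondrial, each of a different gene. By symbol, the cytosolic members were 33 proteins of the large subunit and 22 of the small subunit, and the mitochondrial members were 47 and 27. RefSeq (GRCh38.p14) lists 87 cytosolic and 77 mitochondrial protein-coding symbols of these patterns. The remaining ones, among them RPLP0, RPSA and RPL3, are not analysed here. No filter on low values was applied, so all 129 members were tested.

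H1975 and PC-9 are established lines driven by mutant EGFR, the epidermal growth factor receptor, which osimertinib inhibits. Each line gave 3 arrays of tolerant cells, which had lived through 1 week in 0.5 µM osimertinib and were taken on day 8. Each line also gave 3 arrays of tolerant cells that were alive 48 h after 100 µM SK-216 was added. SK-216 is a code name, and the labels describe the compound as a PAI-1 inhibitor. All 4 groups had thus been through osimertinib and held only surviving cells. For the groups with SK-216 the source name speaks of naive starting cells, but title, description and treatment text all speak of tolerant ones. Whether osimertinib stayed in the medium with SK-216 is not stated. No tolerant cells grown for another 48 h without the compound are described, so the compound and the added time cannot be told apart. The labels do not name separate cultures for the replicates, so p-values reflect the spread among these arrays alone, which may be technical.

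A ribosome has a small subunit, which reads the messenger RNA, and a large subunit, which joins amino acids. Cytosolic ribosomes translate nuclear messages, and their protein genes are among the most strongly expressed in growing cells. Most of those messages begin with a run of pyrimidines, the terminal oligopyrimidine tract, through which mTOR signalling controls their translation. Mitochondrial ribosomes translate the few proteins encoded in mitochondrial DNA, all of them parts of the respiratory chain and ATP synthase, yet their own proteins are encoded in the nucleus and imported.

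Start regions of some genes that carry the main results are shown as examples of the 2 classes. They were taken from RefSeq on GRCh38.p14, which held 300-base windows for 49 cytosolic and 66 mitochondrial members. The sequences below run 5′ to 3′ on the strand of the gene from 14 bases before the annotated start, so that letter 15 is the start. Capitals mark the longest run of C or T, of at least 6 letters, counted from a position within 5 bases of the start; a run that begins further upstream, as in RPL36AL, is counted and marked only from 5 bases before the start. The cytosolic genes shown had the largest differences between lines, in either direction, or changed with SK-216, and the mitochondrial ones were 3 of those that were lowest in PC-9.
RPS15 (chr19:1438382-1438411, plus strand): gcgcaggcgcggaccaaagcgatctcttct
RPS28 (chr19:8321482-8321511, plus strand): ccccgaagcacgtgaCTCCTCTCCgccaga
RPL36AL (chr14:49620611-49620640, minus strand): tgtttcttcCCTTTCCTgttaggcgagagc
RPS26 (chr12:56041904-56041933, plus strand): agacacataacctcgaTTTTCTTCCgccat
RPS16 (chr19:39435934-39435963, minus strand): tggcccctagCTTTCCTTTTCCggttgcgg
MRPL11 (chr11:66438833-66438862, minus strand): tgccctagcctaacgtgaggacccttgacc
MRPL34 (chr19:17292559-17292588, plus strand): cgaacggcccgcccaggtggtctgcgctgc
MRPL24 (chr1:156741073-156741102, minus strand): gacgctgagggcccatgtgctgaaaatccg
Such a run was found at 37 of 49 cytosolic starts (75.5%), at 7 of 66 mitochondrial starts (10.6%) and at 14.8% of the 27305 windows in the table. Without the starts whose run began further upstream (9 cytosolic, 0 mitochondrial), the counts were 28 of 49 (57.1%), 7 of 66 (10.6%) and 13% of all windows. RPS28, RPL36AL, RPS26 and RPS16 held it in the wider sense, and the annotated start of RPS15 did not. The 3 mitochondrial starts shown did not hold it either. Mitochondrial members with large differences that are not shown here did: MRPL14, the highest in PC-9, had a run of 27 letters and MRPS21 a run of 7.

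Each 300-base window held 250 bases before the start and 50 from it. On both strands of the whole window, the letters CCGGAAG, the core of the site bound by GABPA and other ETS factors, were searched. They occurred in 28 of 66 mitochondrial windows (42.4%), in 16 of 49 cytosolic windows (32.7%) and in 10.7% of all windows. They overlapped the run of pyrimidines in 2 windows of each class. The letters AAGATGGC, the core of the YY1 site, were in 28.8% of mitochondrial, 10.2% of cytosolic and 3.03% of all windows. In some windows, as in that of MRPL42, they lay after the start. TATAAA, the core of the TATA box, was in 3.03%, 6.12% and 12% of windows in the same order. The last 100 bases before the start of MRPS21, which was lower in PC-9, and of MRPS18A, which was higher there, are shown with the ETS letters, or their reverse complement, in capitals.
MRPS21 (chr1:150293761-150293860, plus strand): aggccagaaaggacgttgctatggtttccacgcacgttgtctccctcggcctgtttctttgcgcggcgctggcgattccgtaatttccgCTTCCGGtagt
MRPS18A (chr6:43687792-43687891, minus strand): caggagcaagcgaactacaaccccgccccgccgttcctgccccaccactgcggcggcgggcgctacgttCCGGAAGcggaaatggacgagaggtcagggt
These 2 genes are examples that both held the ETS letters. In the same 100 bases MRPL34 and MRPL11, the lowest mitochondrial members in PC-9, and MRPL14, the highest, did not hold them, whereas MRPL43, also lower, did. Whether the letters go with the difference between lines was not tested. A match describes letters in a window and shows no bound factor.

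The arrays separated by line. Over all probe sets, r was between 0.993 and 0.995 within a group, 0.992 to 0.994 between the 2 groups of a line, and 0.927 to 0.932 between lines. All 6 epithelial markers checked were above the 95th percentile of 349 olfactory receptor probe sets (5.05 on the log2 scale) in every group. Of the markers of other cell types, 3 of 6 for fibroblasts, 2 or 3 of 6 for leukocytes and 2 to 4 of 4 for endothelium lay at or below that level. Their part in the results was not tested.

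Mitochondrial members were all above the olfactory receptor level, and most cytosolic members were near the top of the scale. Over the 12 arrays, member means of the cytosolic class had a median of 15.39 and reached 16.96 (RPS23, named after its value was seen), where the brightest single value in the table was 18.61. Of the 55 cytosolic members, 45 had a mean of at least 13. Mitochondrial members ran from 6.06 (MRPS31) to 14.26 (MRPS30), with a median of 10.00. These are log2 signals of different probe sets, so they describe the range of brightness and do not rank the genes. RPL10L, a retrotransposed copy of RPL10 used mainly in testis, was between 4.09 and 4.93 on all 12 arrays, within the range of the olfactory receptors.

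To set the classes side by side, each member was centred on its own mean over the 12 arrays and the members of a class were averaged in each array. The cytosolic mean was 0.25, 0.14 and 0.24 in the 3 arrays of tolerant H1975 cells and 0.22, 0.26 and 0.15 in H1975 cells after SK-216. It was -0.42, -0.20 and -0.22 in tolerant PC-9 cells and -0.15, -0.15 and -0.12 in PC-9 cells after SK-216. The H1975 groups overlapped each other, whereas the PC-9 groups did not. The mitochondrial mean was 0.15, 0.09 and 0.23 in tolerant H1975 cells, 0.17, 0.28 and 0.09 in H1975 cells after SK-216, -0.38, -0.16 and -0.20 in tolerant PC-9 cells, and -0.10, -0.06 and -0.10 in PC-9 cells after SK-216. In both classes every H1975 array lay above every PC-9 array. As group means ± SD (n = 3), the cytosolic class was 0.21 ± 0.06, 0.21 ± 0.06, -0.28 ± 0.12 and -0.14 ± 0.02 in that order, and the mitochondrial class 0.15 ± 0.07, 0.18 ± 0.09, -0.25 ± 0.12 and -0.09 ± 0.02. Tolerant PC-9 array 1 was the lowest of the 12 in both classes and stood apart from the other 2 arrays of its group.

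**Figure D1:**
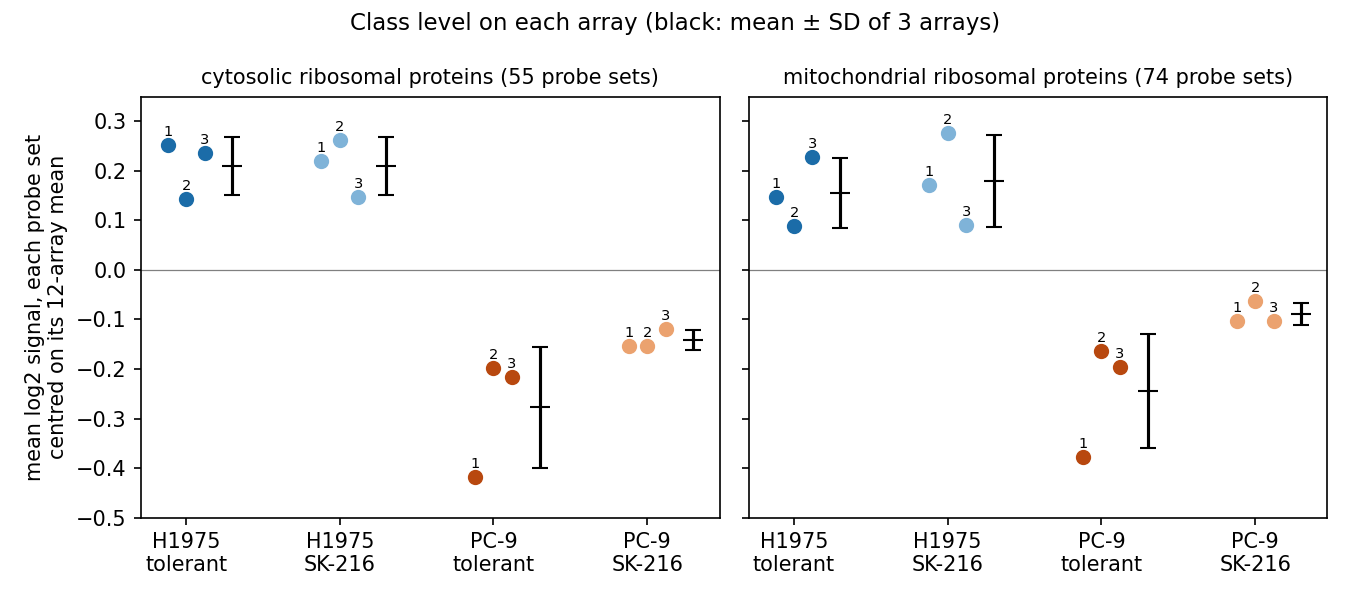
Mean centred log2 signal of the 55 cytosolic and 74 mitochondrial members in each array (points) with the mean ± SD of the 3 arrays of each group. The H1975 arrays lie between 0.09 and 0.28, and the PC-9 arrays between -0.42 and -0.06, with tolerant PC-9 array 1 lowest in both panels.

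The largest differences were between the lines. In tolerant cells, 37 of 55 cytosolic members were lower in PC-9 than in H1975 and 4 were higher (limma, adjusted p below 0.05 over all probe sets), where 22.7% of all probe sets were lower and 21.3% were higher. Of 74 mitochondrial members, 36 were lower and 13 higher. The 3 arrays of each line did not overlap, with PC-9 lower, for 35 members of each class, where this held for 25.3% of all probe sets. The median log2 difference, PC-9 minus H1975, was -0.40 for cytosolic members and -0.36 for mitochondrial members, against 0.02 for all probe sets. It was -0.04 for the 645 other probe sets at least as bright as the lower quartile of the cytosolic class, and -0.09 for the 3929 others between the quartiles of the mitochondrial class. In bulk RNA, fewer cells that express a gene and less of its RNA per cell cannot be told apart.

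By subunit, 15 of 22 small-subunit and 22 of 33 large-subunit members of the cytosolic class were lower in tolerant PC-9 cells. Of each subunit 2 were higher, and the median differences were -0.39 and -0.42. In the mitochondrial class, 12 of 27 named for the small subunit and 24 of 47 named for the large subunit were lower. In the same order 5 and 8 were higher, and the medians were -0.33 and -0.41. Of all probe sets, 22.7% were lower and 21.3% higher. Members of a class did not differ by a common amount: the middle 50% of members ran from -0.83 to -0.12 in the cytosolic class and from -0.92 to 0.11 in the mitochondrial class. The mitochondrial class thus had a wider spread than the cytosolic class. Other probe sets differed in this way too. Their middle 50% ran from -0.51 to 0.51 at cytosolic brightness and from -0.81 to 0.56 in the mitochondrial range. More mitochondrial (17.6%) than cytosolic members (7.27%) were called higher in PC-9, but both shares were below the 21.3% of all probe sets.

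**Figure D2:**
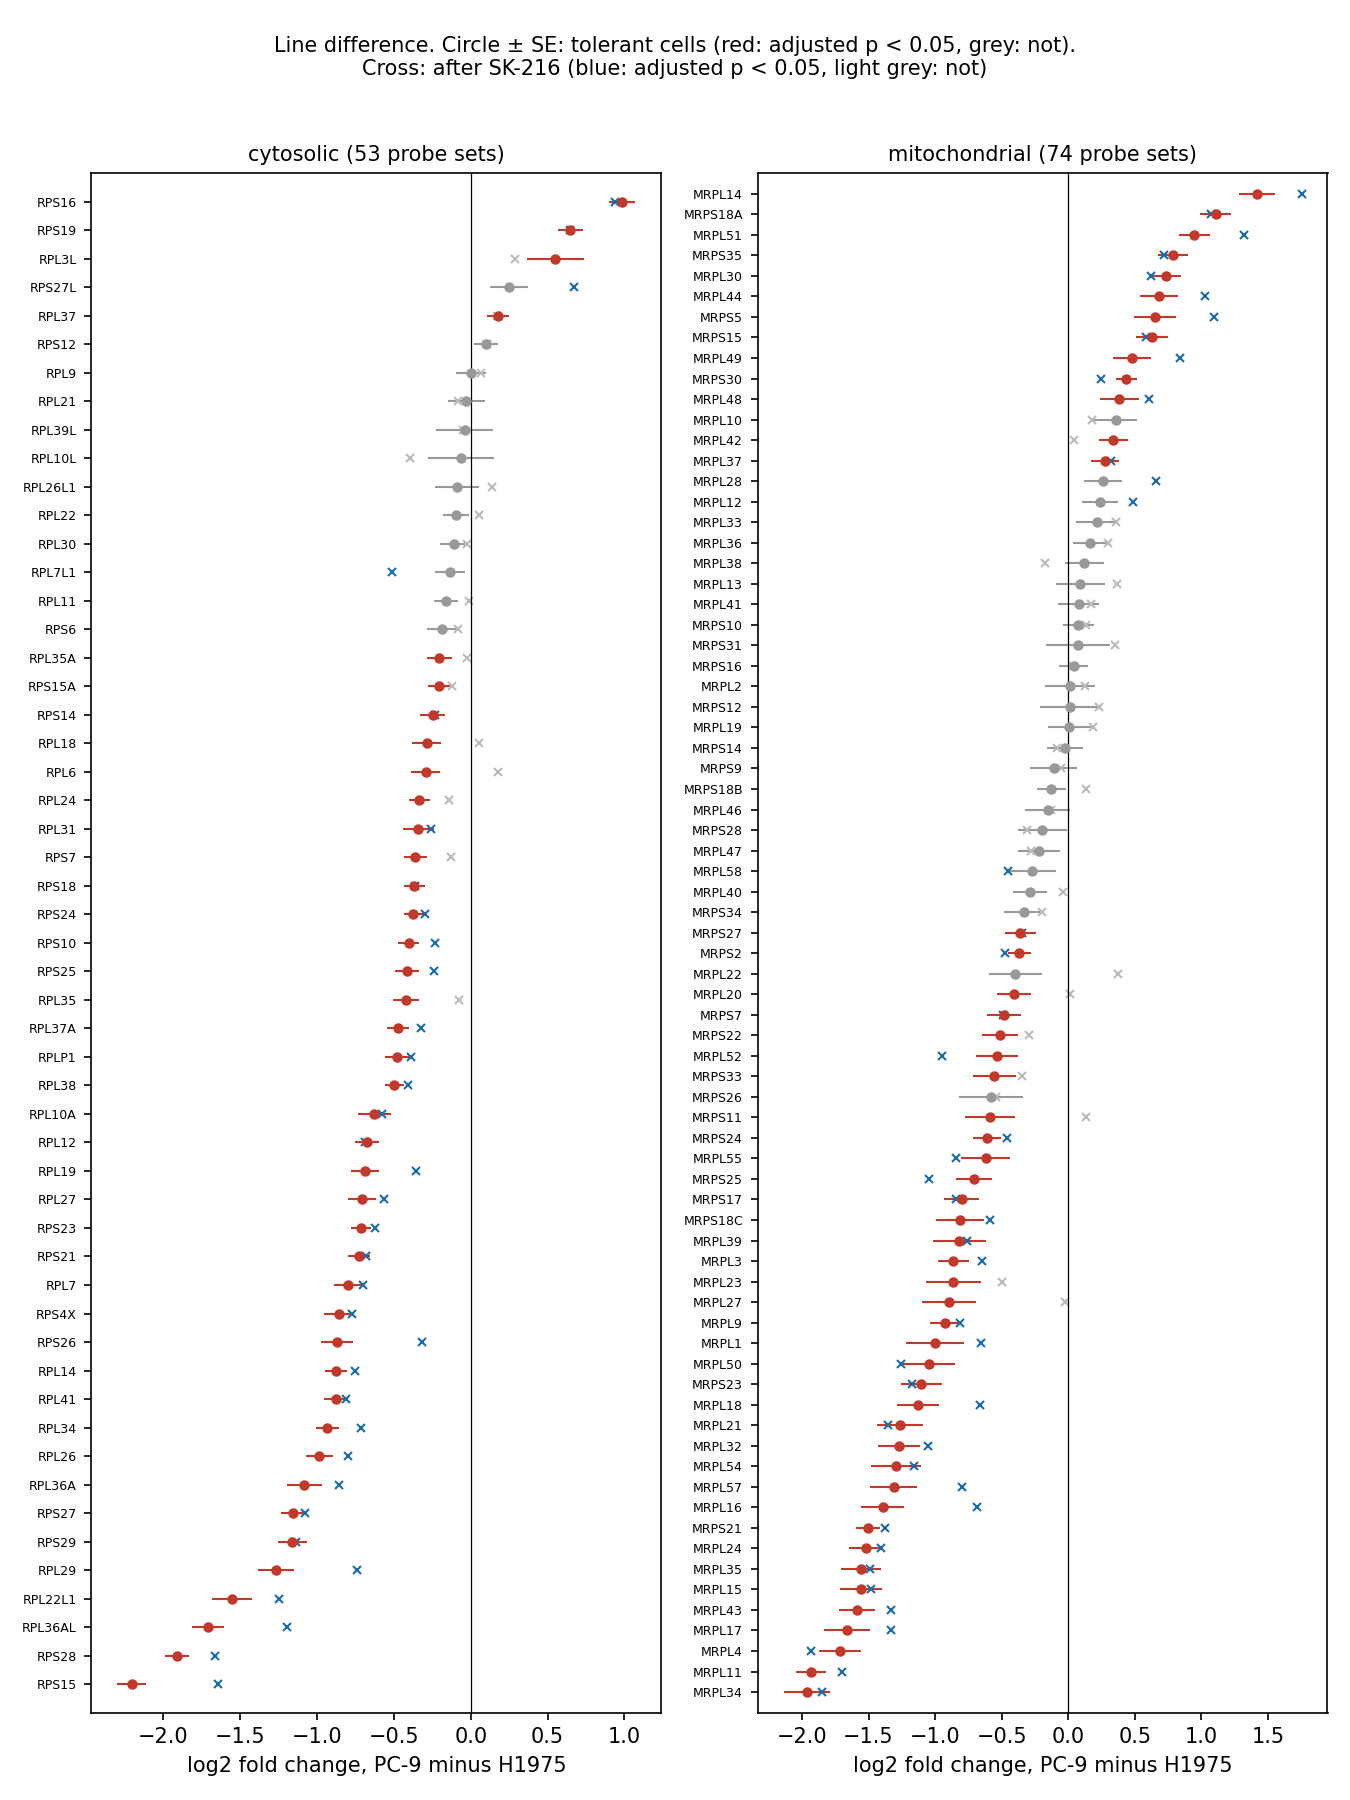
Log2 difference, tolerant PC-9 minus tolerant H1975, of each member as a circle with its standard error (red where called, grey where not), in order of that difference; crosses give the same difference after SK-216 (blue where called, light grey where not), and 53 cytosolic members are drawn because the 2 Y-linked members are left out. Most cytosolic members lie below 0, from RPS15 at -2.21 to RPS16 at 0.99, and mitochondrial members spread from MRPL34 at -1.96 to MRPL14 at 1.42.

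Among small-subunit proteins of the cytosol, RPS15, a protein of the head of the subunit close to the decoding site, differed most. Its log2 signal was 16.22, 16.15 and 16.49 in tolerant H1975 cells and 14.12, 14.10 and 14.02 in tolerant PC-9 cells. The difference was -2.21 ± 0.09 (standard error of the fit), or 4.62-fold (limma, adjusted p = 6.73e-16). RPS28, which lies by the exit of the messenger RNA channel, was 16.93, 16.83 and 17.15 against 14.96, 15.18 and 15.03. Its difference was -1.91 ± 0.08, or 3.77-fold (adjusted p = 2.95e-16), and the lines did not overlap for either gene. The zinc-binding proteins RPS27 and RPS29 were lower by similar amounts, at -1.15 ± 0.08 and -1.16 ± 0.09. RPS26, another protein near the messenger RNA exit, was -0.87 ± 0.11.

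Higher cytosolic members were few. RPS16, whose tail reaches the transfer RNA in the peptidyl site, was 14.62, 14.52 and 14.56 in tolerant H1975 cells and 15.37, 15.75 and 15.54 in tolerant PC-9 cells, a difference of 0.99 ± 0.08 (limma, adjusted p = 4.55e-10). RPS19, the gene most often mutated in Diamond-Blackfan anaemia, was 15.23, 14.96 and 15.04 against 15.57, 15.84 and 15.76, a difference of 0.65 ± 0.08. No array of 1 line overlapped the other line for these genes, which therefore ran opposite to RPS15 and RPS28. The other 2 higher members were RPL37, at 0.18 ± 0.07 and named after its value was seen, and RPL3L. RPS6, the substrate of the S6 kinases, was 15.33, 15.23 and 15.31 against 14.84, 15.26 and 15.20 and did not pass the test (adjusted p = 0.109).

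Of large-subunit proteins, RPL36AL had the largest difference. It was 14.38, 14.05 and 14.33 in tolerant H1975 cells and 12.38, 12.61 and 12.64 in tolerant PC-9 cells, a difference of -1.71 ± 0.11, or 3.27-fold (limma, adjusted p = 1.19e-12). RPL36A, which encodes a nearly identical protein, was 14.06, 13.83 and 14.18 against 12.74, 13.15 and 12.93, a difference of -1.08 ± 0.11. RPL29 (-1.27 ± 0.12) and RPL34 (-0.93 ± 0.07) were also lower.

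Members that have a second gene copy did not follow their partners in a fixed way. RPL22L1 was 12.04, 11.96 and 11.78 in tolerant H1975 cells and 10.48, 10.49 and 10.15 in tolerant PC-9 cells, a difference of -1.55 ± 0.13, whereas RPL22 was -0.10 ± 0.08 and did not pass (adjusted p = 0.404). In the next pairs, paired here by symbol, the first gene was lower and the second did not pass. RPL26 was -0.99 ± 0.09 and RPL26L1 -0.09 ± 0.14, and RPL7 was -0.80 ± 0.09 and RPL7L1 -0.14 ± 0.10. Whether the second gene can take the place of the first in a ribosome was not tested. RPS27L, a p53-inducible copy of RPS27, was 0.25 ± 0.12 in tolerant cells (adjusted p = 0.117) where RPS27 was -1.15. The difference between the members of a pair was not tested. RPL39L, a copy used mainly in testis, had values from 9.77 to 10.79 over all 12 arrays and a difference of -0.04 ± 0.19. RPL3L, the striated muscle copy of RPL3, was 0.55 ± 0.18 higher in tolerant PC-9 cells (adjusted p = 0.0167) and was no longer called without tolerant H1975 array 1 or tolerant PC-9 array 3 (adjusted p from 0.0502 to 0.0733). Of the 10 copies in the list of paralogues, 1 was called higher and 2 lower, which is no more than the shares of all probe sets (21.3% and 22.7%).

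Sequence shared between copies limits how far the cytosolic values can be assigned to single genes. RefSeq lists pseudogenes named after 47 of the 55 cytosolic members, with a median of 13 and up to 137 each, and after 38 of the 74 mitochondrial members, with a median of 1 and up to 9. The sources used here do not say how the probe sets treat such copies. Leaving the Y-linked members aside, 35 of 46 cytosolic members with a listed pseudogene were lower in tolerant PC-9 cells and 3 were higher, with a median of -0.42. Of the 7 without, 2 were lower and 1 was higher, with a median of -0.06, near the shares of all probe sets (22.7% lower and 21.3% higher). The difference between these sets of members was not tested, and 7 members are few. These 7 all belong to the list of paralogues, with RPL10L near the olfactory receptor level among them. Having a listed pseudogene, being such a paralogue and brightness therefore cannot be told apart here. In the mitochondrial class the medians were -0.40 with and -0.35 without a listed pseudogene.

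Among mitochondrial members, large-subunit proteins had the largest differences. MRPL34 was 11.08, 10.98 and 11.50 in tolerant H1975 cells and 8.88, 9.58 and 9.21 in tolerant PC-9 cells, a difference of -1.96 ± 0.17, or 3.90-fold (limma, adjusted p = 8.69e-10). MRPL11, a protein of the stalk base where elongation factors dock, was 11.87, 11.62 and 11.88 against 9.75, 9.94 and 9.88, a difference of -1.93 ± 0.12, or 3.82-fold. In both genes every tolerant H1975 array was at least 1 log2 unit above every tolerant PC-9 array. MRPL4, which lines the tunnel of the nascent chain, was -1.71 ± 0.16, MRPL43 -1.59 ± 0.14 and MRPL24, at the tunnel exit, -1.52 ± 0.13. In the small subunit, MRPS21 was 14.27, 14.37 and 14.49 against 12.83, 12.99 and 12.80, a difference of -1.50 ± 0.09, and MRPS27, a pentatricopeptide repeat protein, was -0.36 ± 0.12, which was no longer called without tolerant H1975 array 2 (adjusted p = 0.113).

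The 13 higher mitochondrial members were led by MRPL14, at 9.40, 9.25 and 9.41 in tolerant H1975 cells and 10.53, 10.81 and 10.97 in tolerant PC-9 cells. Its difference was 1.42 ± 0.13, or 2.67-fold (limma, adjusted p = 2.58e-09). MRPS18A was 10.59, 10.46 and 10.67 against 11.78, 11.57 and 11.69, a difference of 1.11 ± 0.12. MRPS18A and MRPS30 belong to the large subunit of the human mitochondrial ribosome despite their symbols, and MRPS30 was also higher (0.44 ± 0.08). The 3 genes that descend from a common S18 ancestor thus had different values: MRPS18A was higher, MRPS18C was lower (-0.81 ± 0.18), and MRPS18B did not pass (-0.13 ± 0.11). MRPL51 (0.95 ± 0.12), MRPS35 (0.79 ± 0.11) and MRPL44, which shares the fold of ribonuclease III (0.68 ± 0.14), were higher as well. MRPL12, reported to bind the mitochondrial RNA polymerase, was 0.24 ± 0.13, MRPS12 was 0.01 ± 0.22 and MRPL41 was 0.08 ± 0.15, and none of these passed.

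**Figure D3:**
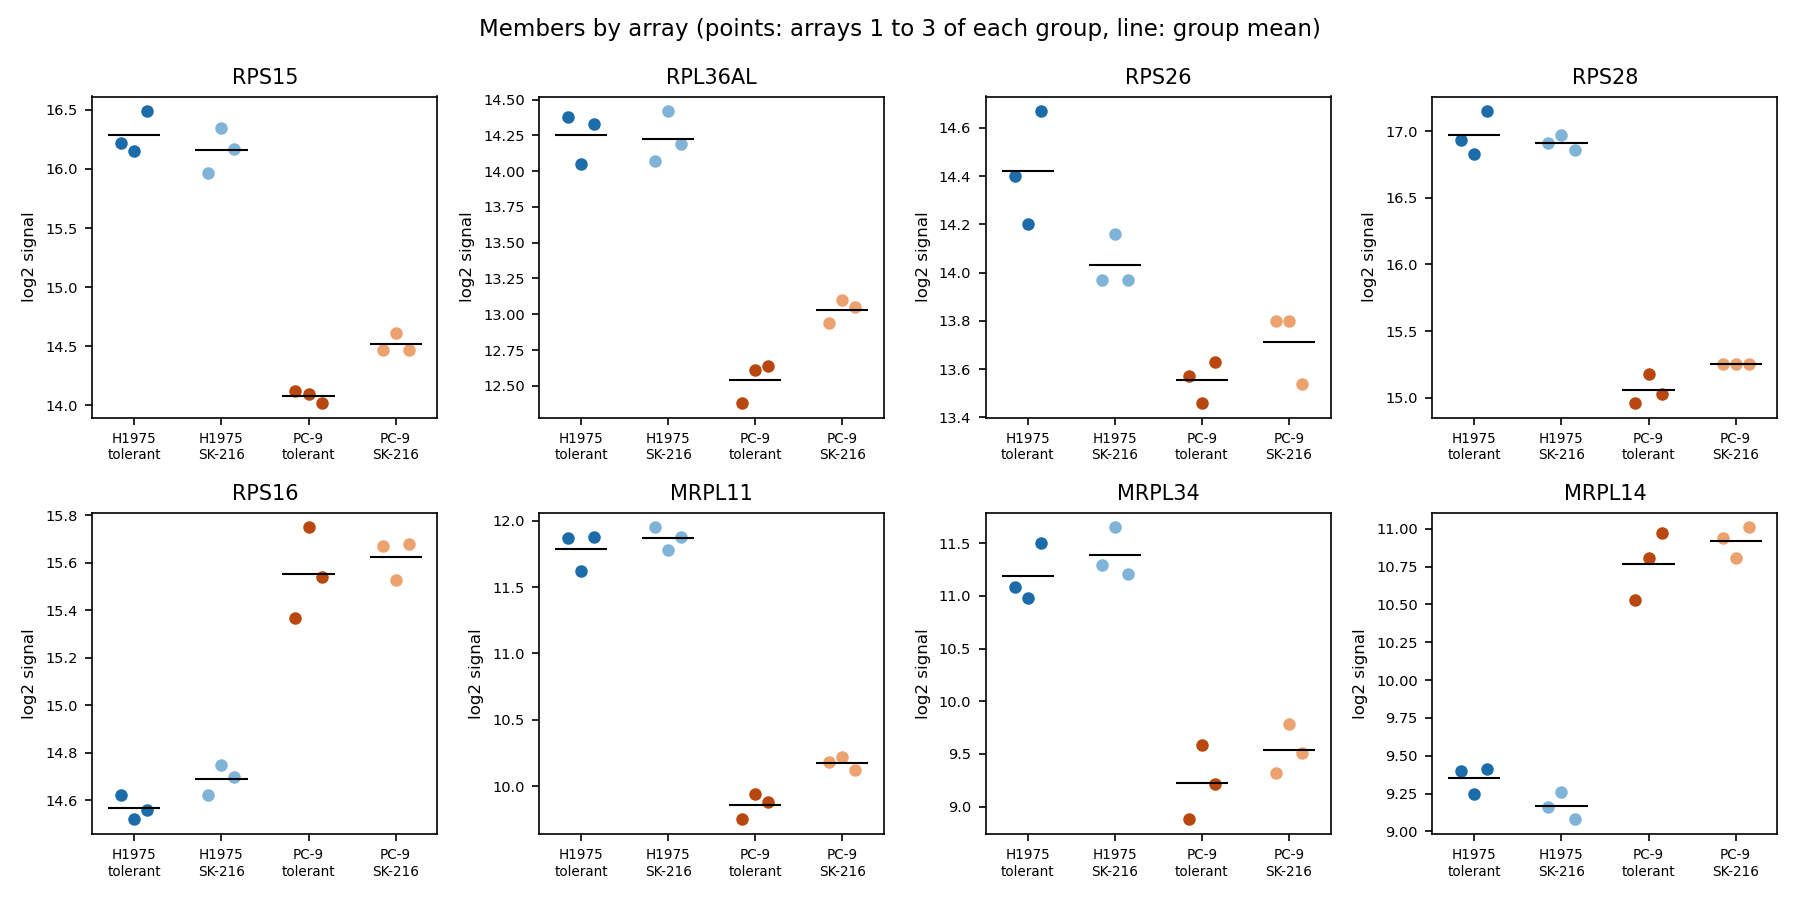
Log2 signal of selected members in each of the 12 arrays, by group, each panel on its own scale. RPS15 lies at 16.15 to 16.49 in tolerant H1975 cells, at 14.02 to 14.12 in tolerant PC-9 cells and at 14.47 to 14.61 in PC-9 cells after SK-216.

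The difference between lines recurred after SK-216. The log2 differences there come from other arrays than those of tolerant cells. The calls are not separate, because the fit takes 1 estimate of spread per probe set from all 12 arrays. After SK-216, 31 cytosolic members were lower in PC-9 and 3 higher, where 22.2% of all probe sets were lower and 21.6% higher. Of the mitochondrial members, 31 were lower and 14 higher. The medians were -0.30 and -0.24, against -0.04 for all probe sets. Of the cytosolic members, 30 were lower and 2 were higher in both comparisons, and of the mitochondrial members 30 and 12, where 18.7% of all probe sets were lower and 17.8% higher in both. The 12 mitochondrial members are near that share. Across members, the log2 differences before and after SK-216 correlated at r = 0.95 in each class (55 and 74 members) and at 0.95 over all 21448 probe sets, a description of points that share the same 2 cell lines and probe sets.

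The genes with the largest differences in tolerant cells differed here too. RPS28 was 16.91, 16.97 and 16.86 in H1975 and 15.25 in each of the 3 PC-9 arrays, a difference of -1.66 ± 0.08, and RPS15 was -1.65 ± 0.09. RPS27 was -1.08 ± 0.08, RPS29 -1.14 ± 0.09, RPS16 0.94 ± 0.08 and RPS19 0.64 ± 0.08. RPS27L now passed as higher in PC-9, at 11.08, 11.11 and 10.62 in H1975 against 11.61, 11.62 and 11.60 (0.67 ± 0.12, limma, adjusted p = 6.34e-05). RPL7L1 now passed as lower (-0.51 ± 0.10). Neither gene's change with SK-216 differed between lines by the test of that difference (adjusted p = 0.289 and 0.225). In the mitochondrial class MRPL4 was lowest (-1.93 ± 0.16), MRPL34 was -1.85 ± 0.17 and MRPL14 was highest (1.75 ± 0.13). MRPS18C was called lower (-0.59 ± 0.18) but not without H1975 SK-216 array 1 (adjusted p = 0.0666). MRPS30 was called higher (0.24 ± 0.08) but not without H1975 SK-216 array 3 or PC-9 SK-216 array 1, nor under 3 other settings, with adjusted p from 0.0527 to 0.475 over those fits. MRPS27 (-0.34 ± 0.12) was not called without H1975 SK-216 array 3 (adjusted p = 0.0858).

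Members of the classes are scattered over the genome, and their differences between lines were set beside those of their neighbours. For each member, the median difference was taken over up to 20 named genes that are no members, 10 on each side in the RefSeq gene order. This description was chosen after the data were seen, and 125 of the 127 members outside the Y chromosome had all 20. In tolerant cells the members' differences correlated with those of their neighbours at r = 0.48 (rho = 0.53) over 53 cytosolic members and at r = 0.63 (rho = 0.63) over 74 mitochondrial members. For the 17580 other named probe sets r was 0.28 (rho = 0.32). All points come from the same arrays, and windows of nearby genes overlap. Of the called members, 19 of 41 cytosolic and 38 of 49 mitochondrial ones had the sign of their neighbours, as did 5591 of 8154 other called probe sets. After SK-216 the values of r were 0.52, 0.61 and 0.29. For the changes with SK-216, r ranged from -0.31 to 0.13 over both lines and classes.

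Chromosome 19 shows both directions within a single chromosome; all 9 ribosomal protein members on it are given here, whether or not the rule for named genes picks them. In chromosomal order from the end of the short arm, the tolerant PC-9 minus H1975 differences were -2.21 for RPS15, -1.29 for MRPL54, -1.91 for RPS28, -1.71 for MRPL4 and -1.96 for MRPL34, then 0.01 for MRPS12, 0.99 for RPS16, 0.65 for RPS19 and -0.29 for RPL18. The first 5 thus were all lower, from both classes. Their neighbours had medians from -0.66 to -0.07, smaller in size than the members' own differences, and the neighbours of the last 4 had medians from 0.08 to 0.27. On chromosome 12, MRPL51 (0.95) and MRPS35 (0.79) lay among neighbours with medians of 0.72 and 1.05. MRPS18A and MRPL14, the highest mitochondrial members, follow each other among the members on chromosome 6, with neighbours at 0.25 and 0.36. RPL9, named after its value was seen, had a difference of 0.00 where its neighbours were at 1.26.

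**Figure D4:**
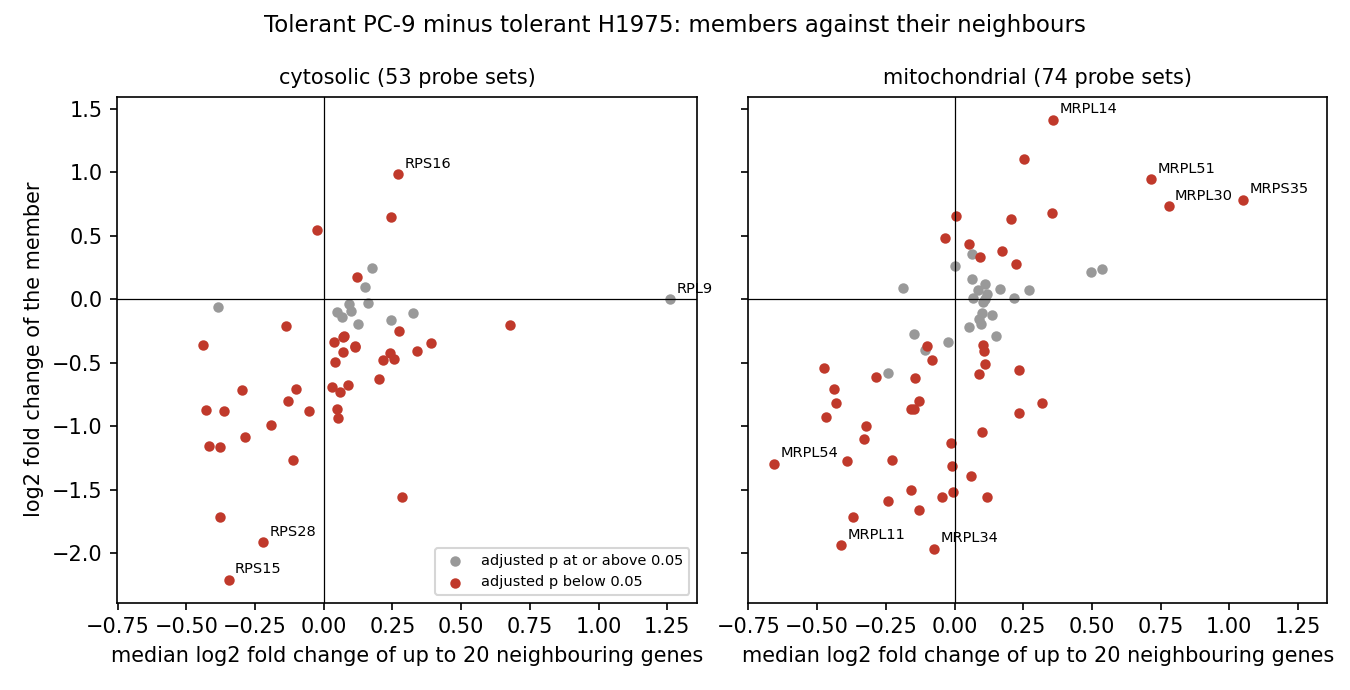
Log2 difference, tolerant PC-9 minus tolerant H1975, of each member against the median of up to 20 neighbouring genes, for 53 cytosolic and 74 mitochondrial members. The points rise from lower left to upper right more tightly in the mitochondrial panel (r = 0.63) than in the cytosolic panel (r = 0.48), and RPS15 lies far below its neighbours' -0.35.

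With SK-216 the changes were far smaller than the differences between lines. In PC-9, 2 of 55 cytosolic members rose (RPS15 and RPL36AL) and none fell, where 0.373% of all probe sets rose and 0.0699% fell. None of the 74 mitochondrial members passed. Most members nevertheless had values above 0: 48 of 55 cytosolic and 63 of 74 mitochondrial ones, against 10599 of all 21448 probe sets. The median log2 change was 0.14 and 0.15, against -0.003 for all probe sets, 0.06 for other probe sets as bright as the cytosolic class and 0.03 for those in the mitochondrial range. At an unadjusted p below 0.05, 22 cytosolic members (40%) and 11 mitochondrial members were higher, where 6.39% of all probe sets were, and 1 and 0 were lower, where 4.53% were. The 3 arrays of each group did not overlap, with SK-216 higher, for 15 cytosolic and 13 mitochondrial members, where this held for 8.21% of all probe sets. Without tolerant PC-9 array 1, the lowest of all, the medians were 0.07 and 0.08.

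RPS15 was 14.12, 14.10 and 14.02 in tolerant PC-9 cells and 14.47, 14.61 and 14.47 after SK-216, without overlap. Its change was 0.44 ± 0.09, or 1.35-fold (limma, adjusted p = 0.0295). RPL36AL was 12.38, 12.61 and 12.64 before and 12.94, 13.10 and 13.05 after, again without overlap, a change of 0.49 ± 0.11, or 1.40-fold (adjusted p = 0.0342). Both are members that were low in PC-9, and after SK-216 both remained below every H1975 array. Each call was lost when any of the 6 PC-9 arrays was left out, with adjusted p up to 0.215.

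Below the threshold in PC-9, the largest cytosolic rise was that of RPL29, at 10.95, 11.16 and 11.03 before and 11.44, 11.32 and 11.70 after (0.44 ± 0.12, adjusted p = 0.132). The copies RPL10L (-0.44 ± 0.21) and RPL3L (-0.28 ± 0.18) had the lowest values. In the mitochondrial class the highest were MRPS31 (0.56 ± 0.24), whose arrays overlapped between groups, and MRPL22, a protein of the nascent chain tunnel (0.46 ± 0.20). MRPL22 was 7.49, 8.38 and 8.15 before and 8.25, 8.60 and 8.54 after, with tolerant array 1 the lowest of the 6. The lowest were MRPS14 (-0.14 ± 0.13) and MRPL42 (-0.12 ± 0.11).

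In H1975, 1 cytosolic member, RPS26, fell, none rose and no mitochondrial member passed, where 2.35% of all probe sets fell and 1.44% rose. RPS26 was 14.40, 14.20 and 14.67 in tolerant cells and 13.97, 14.16 and 13.97 after SK-216, so the lowest tolerant array (14.20) was just above the highest SK-216 array (14.16). Its change was -0.39 ± 0.11, or 1.31-fold lower (limma, adjusted p = 0.0360). The call was lost without tolerant array 1 or 3 or SK-216 array 1 or 3 of H1975, with adjusted p up to 0.238. The class medians were 0.02 and 0.04, against 0.01 for all probe sets. At an unadjusted p below 0.05, 1 cytosolic and 4 mitochondrial members changed, where 14.2% of all probe sets did. The widest uncalled values were RPL39L at 0.24 ± 0.19, RPL10A at 0.16 ± 0.11 and RPS27L at -0.19 ± 0.12 in the cytosolic class, and MRPL52 at 0.34 ± 0.16, MRPS35 at 0.32 ± 0.11, MRPL27 at -0.43 ± 0.20 and MRPS11 at -0.39 ± 0.19 in the mitochondrial class.

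**Figure D5:**
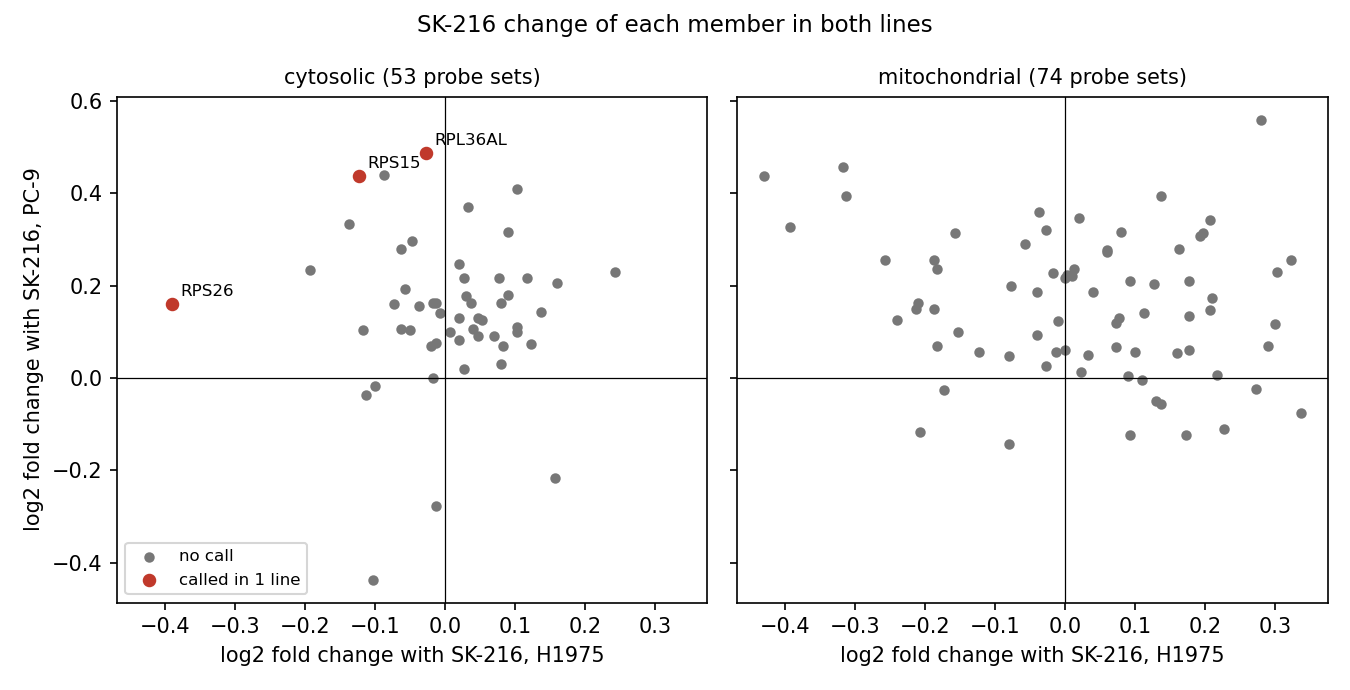
Log2 change with SK-216 of each member in H1975 and in PC-9, for 53 cytosolic and 74 mitochondrial members, 1 point each. Most points of both panels lie above 0 on the PC-9 axis and on both sides of 0 on the H1975 axis, and the called members, in red, are RPS26 in H1975 and RPS15 and RPL36AL in PC-9.

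The change with SK-216 was compared between lines by the difference of the changes, PC-9 minus H1975. RPS15 passed in that test: it changed by 0.44 in PC-9 and by -0.12 ± 0.09 in H1975, a difference of 0.56 ± 0.13 (limma, adjusted p = 0.0261), where 1.09% of all probe sets were higher and 0.331% lower. No other member passed, including RPS26 (0.55 ± 0.15, adjusted p = 0.0684) and RPL36AL (0.51 ± 0.15, adjusted p = 0.0931). Of 74 mitochondrial members none passed, and 7 were higher at an unadjusted p below 0.05, as were 12 cytosolic members, where 7.31% of all probe sets were. The class medians of the difference were 0.10 and 0.12, against -0.007 for all probe sets, and 0.05 for both classes without tolerant PC-9 array 1. The largest uncalled values were those of MRPL27 (0.87 ± 0.28) and MRPL22 (0.77 ± 0.28), and the lowest those of MRPL52 (-0.41 ± 0.22), RPL7L1 (-0.37 ± 0.14), MRPS25 (-0.34 ± 0.19) and RPL10L (-0.33 ± 0.30). The RPS15 call was lost without tolerant array 3 or SK-216 array 1 or 3 of H1975, and without tolerant array 3 or SK-216 array 2 of PC-9, with adjusted p up to 0.0974. The cytosolic count was 3 without array 2 of either H1975 group and 2 without SK-216 array 1 or 3 of PC-9, and 1 mitochondrial member passed without tolerant PC-9 array 2. Between the lines, the changes with SK-216 correlated across members at r = 0.11 in the cytosolic class and -0.21 in the mitochondrial class, in comparisons that share no arrays.

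Genes that work with the ribosome but whose symbols lie outside the membership rule were followed as lists. Their counts in tolerant cells stand beside 22.7% of all probe sets lower and 21.3% higher, with a median of 0.02. Of 6 genes listed as further mitochondrial ribosome proteins and partners, 5 were lower in tolerant PC-9 cells and none higher, with a median of -1.02. They included OXA1L, which inserts nascent chains into the inner membrane (-1.89 ± 0.12), GADD45GIP1 (-1.71 ± 0.15) and DAP3, a GTP-binding protein of the small subunit (-1.04 ± 0.10). Also among these 5, and named outside the rule for named genes, was KGD4 (-0.79 ± 0.17). Its symbol names a subunit of ketoglutarate dehydrogenase, not a ribosome protein. Of 26 factors of mitochondrial translation and ribosome assembly, 15 were lower and 3 higher, with a median of -0.62. Elongation factor TSFM (-2.03 ± 0.15) and the ribosomal RNA methyltransferase MRM3 (-1.70 ± 0.18) were lower, and the recycling factor MRRF was higher (1.01 ± 0.11). After SK-216 the counts were 5 of 6 and 15 of 26 lower, and 0 and 3 higher, where 22.2% of all probe sets were lower and 21.6% higher.

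On the cytosolic side, 7 of 14 measured terminal oligopyrimidine genes outside the rule were lower in tolerant PC-9 cells and 4 were higher, with a median of -0.22. In this list and in the next 2 the higher genes are near the 21.3% of all probe sets, and the lower ones are above the 22.7%, in a description without a test. EIF3F (-0.96 ± 0.11) and EIF3H (0.91 ± 0.08), which encode subunits of the same initiation factor, differed in opposite directions, and the histone chaperone NAP1L1 was -0.54 ± 0.08. Of 33 initiation factors and regulators, 19 were lower and 7 higher, with a median of -0.32, among them S6 kinase RPS6KB2 (-2.10 ± 0.11), EIF3G (-1.40 ± 0.09) and EIF3C (-1.01 ± 0.08). Of 17 chaperones and surveillance factors of the ribosome, 9 were lower and 5 higher, with a median of -0.41. RRS1, needed to build the large subunit, was -2.06 ± 0.20, BCCIP, a chaperone of a ribosomal protein, was -1.68 ± 0.13, and the rescue factor HBS1L was 0.95 ± 0.11. With SK-216, HBS1L in H1975 was the only call in these 5 lists in either line. It was 10.92, 11.03 and 10.99 before and 11.59, 11.28 and 11.42 after, a rise of 0.45 ± 0.11 (limma, adjusted p = 0.0139) that was lost without array 1 of either H1975 group and without the variance trend (adjusted p from 0.0730 to 0.105 over those fits).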

How the data were processed

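RNA (250 ng per array) of 12 cell-line samples was hybridised to a 1-colour whole-transcript array. Each probe set has a single log2 signal per array, deposited by the authors. Per the submitters' processing notes they used Transcriptome Analysis Console. Its version, the summarisation, the normalization and the array's build are not named in the sources used here. Array medians lay between 6.56 and 6.62, and nothing was normalized further. Of 21448 probe sets, 17709 had a symbol in the platform annotation and 3739 had none. Arrays have no read depth: 3 per group limit the precision.

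With limma 3.58.1 (R 4.3.3), all probe sets were fitted with 4 group means and trended eBayes, at 8 residual and 15.0 prior (median) degrees of freedom. Two-sided p-values were adjusted over the whole table (Benjamini-Hochberg), and calls had an adjusted p below 0.05. Errors are standard errors of the fit unless SD is named. The fit was tested on simulated data. The members and lists were chosen with earlier results of these data known. Named members were, per comparison and class, up to 6 calls with the smallest adjusted p, the 2 largest rises and falls, and a list of paralogues and well-known members; up to 3 calls per further list were named. Levels of the Y-linked members are not given. Sequence windows and motifs, chosen after the data were seen, came from RefSeq tables of GRCh38.p14. The NRF1 site was searched in a longer and a shorter form; the shares depended on the form, with those of the longer one near the share of all windows, and neither is reported. Alternatives were eBayes without trend, robust eBayes, each line alone, the replicate number as a block, quantile normalization, a filter on the dimmest 30% of probe sets, median centring, array weights, 1 probe set per symbol and leaving out each array. Figures were drawn with matplotlib 3.10.9.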

Additional observations from a re-analysis of the deposited data

Results flagged for a closer look

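RPS15 was singled out because its change with SK-216 differed between the lines by the test of that difference: 0.44 in PC-9 and -0.12 in H1975, a difference of 0.56 ± 0.13 (limma, adjusted p = 0.0261, 3 arrays per group). All 3 PC-9 arrays after SK-216 were above all 3 tolerant PC-9 arrays, whereas the H1975 groups overlapped.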

How the results depend on the processing

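The calls between lines changed little and the few calls with SK-216 changed often. The count of cytosolic members called with SK-216 in H1975, 1 as reported, was 0 without the variance trend, with H1975 fitted alone and with the replicate block. In PC-9, 2 as reported, it was 0 without the trend, with the replicate block and after quantile normalization. For the difference of the changes, 1 as reported, it was 0 without the trend and after quantile normalization and 2 without the dimmest 30% of probe sets. Same-numbered arrays did not deviate together (correlations from -0.09 to 0.007 in H1975 and from 0.02 to 0.03 in PC-9), so the numbers were not taken as pairs; the block was not run between lines, since it lies within a line. Quantile normalization moved the cytosolic median between tolerant lines from -0.40 to -0.30. The causes were not tested.

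Leaving out 1 array at a time gave cytosolic counts of 0 to 1 for SK-216 in H1975, 0 to 2 in PC-9 and 0 to 3 for the difference, and mitochondrial counts of 0 to 1 for the difference. Between tolerant lines the counts were 35 to 41 and 44 to 51, and after SK-216 32 to 35 and 42 to 46. The mitochondrial median between tolerant lines ranged from -0.42 to -0.28. Of 3976 values of named genes under all alternatives, 3923 kept their side of the threshold, 45 lost a call and 8 gained a call. Among called values, 0 changed sign. Uncalled values were not held to a direction, and some changed sign. RPL39L with SK-216 in PC-9 was 0.23 and fell as low as -0.01 with 1 array left out. Array signals near the olfactory receptor level, as for RPL10L, limit what can be detected.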
